A study of Mus musculus with 2 samples.

Results

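The insulin-like growth factor (IGF) binding proteins, their ligand Igf1 and its receptor Igf1r were examined in the hippocampus of old mice given tomatidine, a steroidal alkaloid of tomato plants. The set held 8 genes, Igfbp2, Igfbp3, Igfbp4, Igfbp5, Igfbp6, Igfbp7, Igf1 and Igf1r, picked by gene symbol from the 19059 genes in the files, and each of the 8 was found. The study asked whether tomatidine lowers cellular senescence in aged animals, and several of these genes encode proteins that senescent cells are known to secrete. Wild-type C57BL/6 mice of both sexes, 21 months old at the start, received for 3 months either standard chow (control) or chow with 0.05% tomatidine. Flash-frozen hippocampi of 4 mice were pooled for each group, fixed and profiled with a probe-based single-cell assay, which gave 1 library per group.

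IGF1 is a small secreted hormone that acts through a tyrosine kinase receptor, the product of Igf1r. The binding proteins are secreted carriers that hold IGFs in body fluids, lengthen their life and either limit or present them to the receptor, while IGFBP7 binds IGFs only weakly and is best known as a protein of vessel walls. In the brain these genes are made by different cells: vessels, meninges, choroid plexus, astrocytes and sets of neurons each express some of them.

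The files held 15912 control and 15185 tomatidine cells with 279525565 and 259059908 unique molecular identifiers (UMIs, each a counted molecule). After the filters, 15115 and 14503 cells were kept, with medians of 7077 and 7408 UMIs. Levels below are UMIs of a gene in each 1000000 UMIs (CPM), summed over the cells of 1 class in 1 library. Ratios are tomatidine over control on the log2 scale. Since each group was a single pooled library, the groups could not be tested against each other, and the 95% intervals given cover counting error only, not the spread between mice. Probes per gene are not given in the sources used here, so CPM was compared between cells for 1 gene and not between genes. The libraries shared 292 cell barcodes, of which 277 were among the kept cells of each library, and without these cells the same 10 pairs passed the fold used below.

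Cells were grouped into classes by marker genes, and 13 classes were named, each called "-like" because the names were rebuilt from the counts. The libraries differed in makeup. Choroid plexus-like cells numbered 350 in the control and 32 in the tomatidine library, whereas meningeal fibroblast-like cells numbered 284 and 527. Clusters that stayed unnamed also differed, in both directions. The one led by Pou4f2 and Barhl1 numbered 179 and 667 cells and the one led by Gata3 and Sox14 177 and 519. Another numbered 155 and 29, and another 85 and 2. Ttr, the most abundant choroid plexus transcript, reached 3426 CPM over all control cells and 595 CPM over all tomatidine cells. It was also counted in classes not known to make it, at 233 and 40.4 CPM in excitatory neuron-like cells.

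On the mm10 annotation (GENCODE vM21), Igfbp2 spans bases 72824503 to 72852474 of chromosome 1 (plus strand), and Igfbp5 is its neighbour at bases 72857932 to 72874884 (minus strand), with 5457 bases between them. Igfbp3 spans bases 7206086 to 7213923 of chromosome 11 (minus strand), 3539 bases from Igfbp1, and Igfbp4 is on the same chromosome at bases 99041244 to 99054392 (plus strand). Igfbp6 is on chromosome 15 from 102144362 to 102149511, Igfbp7 on chromosome 5 from 77349240 to 77408041, Igf1 on chromosome 10 from 87858265 to 87937042 and Igf1r on chromosome 7 from 67952827 to 68233668. The annotated span of Igfbp7 overlaps that of Polr2b, and Igf1 overlaps the annotated RNA Igf1os. Although Igfbp2 and Igfbp5 are neighbours, their highest levels were in different cells, as described next.

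**Figure D1:**
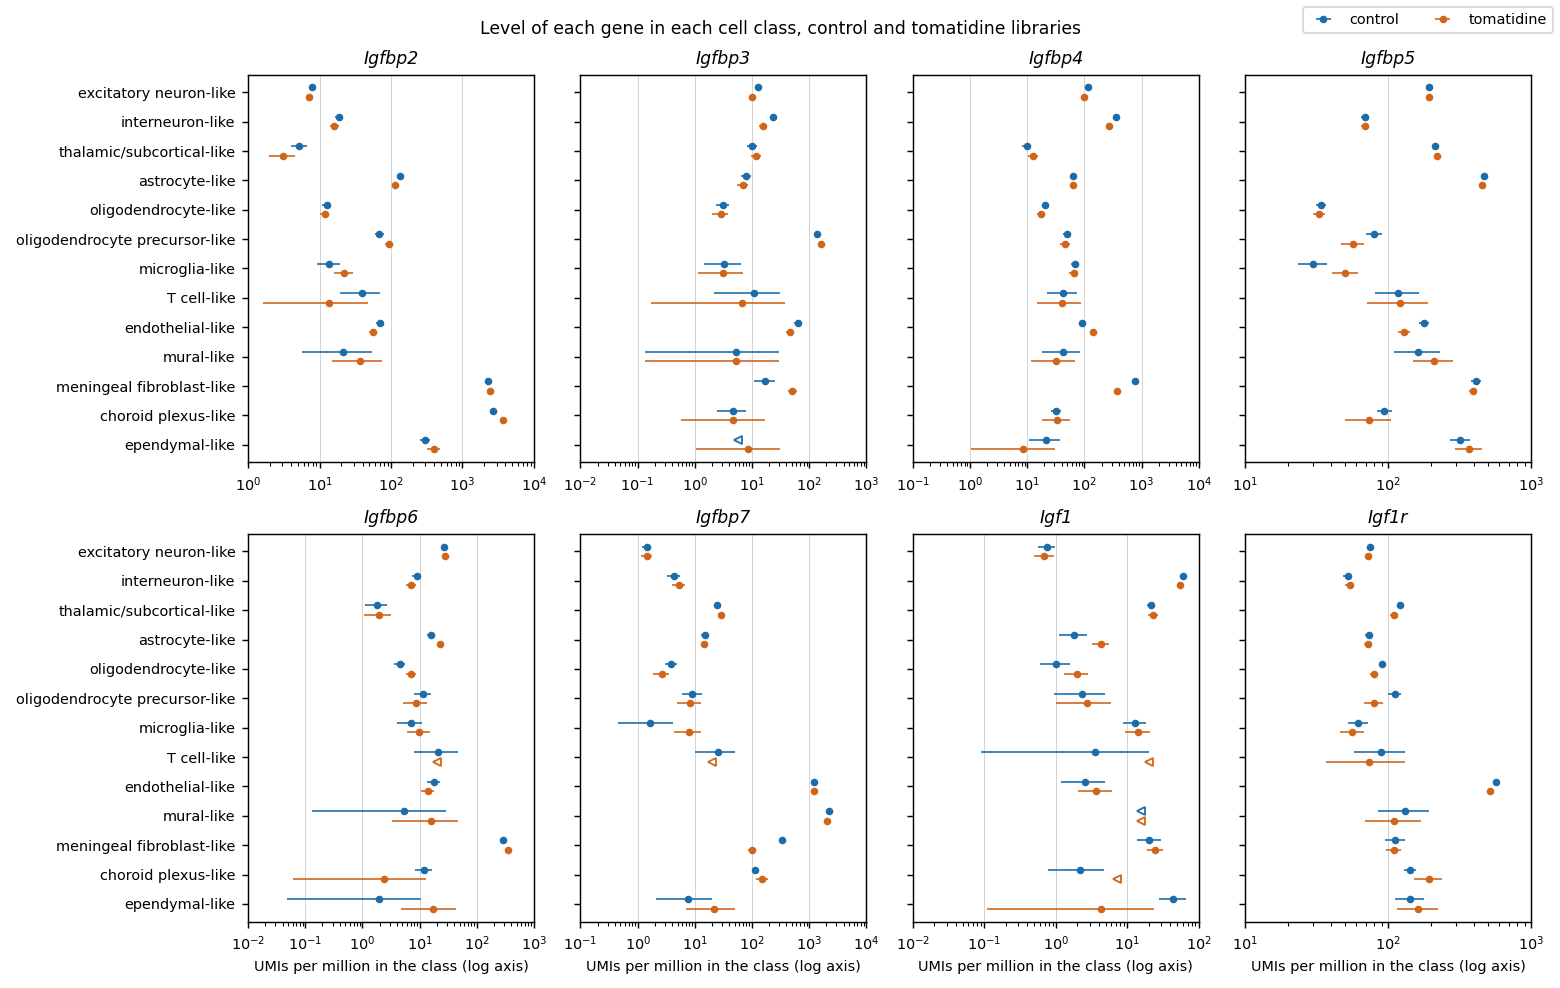
Levels in CPM of each of the 8 genes (log axes) in 13 named cell classes of the control (blue) and tomatidine (orange) libraries. Points are class totals with exact Poisson 95% intervals, and open triangles mark a class with 0 UMIs at the level that 3 UMIs would give. In the control library Igfbp7 spans from 1.45 CPM in excitatory neuron-like to 2207 CPM in mural-like cells of the control library.

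Igfbp2, a binding protein found in cerebrospinal fluid, was highest in choroid plexus-like and then in meningeal fibroblast-like cells, with intervals that did not overlap in either library. Choroid plexus-like cells held 2687 CPM in the control and 3660 CPM in the tomatidine library, and meningeal fibroblast-like cells held 2252 and 2454 CPM. Ependymal-like cells followed with 302 and 394 CPM, from 34 and 14 cells, and astrocyte-like cells with 132 and 115 CPM. Neurons were far lower, with 7.89 and 7.06 CPM in excitatory neuron-like cells. The transcript was concentrated: 58.2% of the control UMIs and 56.5% of the tomatidine UMIs of Igfbp2 came from the top 1% of cells. After each cell was thinned to 1500 UMIs, 76.5% of control and 73.9% of tomatidine meningeal fibroblast-like cells had an Igfbp2 UMI, against 81.0% and 77.2% unthinned. Oligodendrocyte-like cells, which are not a known source, had 1.99% and 1.65% after thinning, at median depths of 5266 and 4842 UMIs against 3556.5 and 3155 in meningeal fibroblast-like cells.

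Within astrocyte-like cells Igfbp2 varied by cluster. The astrocytes led by Agt and Sfrp5 held 223 and 271 CPM, those led by Cyp4f15 and Mfge8 held 214 and 138 CPM, and those led by Myoc and Thbs4 held 105 and 70.9 CPM. Among interneuron-like cells, the subcluster led by Clrn2 and Nkx2-1, with 36 control and 45 tomatidine cells, held the most Igfbp2. It had 136 of the 249 control UMIs and 76 of the 197 tomatidine UMIs of the class, at 113 and 53.4 CPM.

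Igfbp3, which carries most IGF in serum, was highest in oligodendrocyte precursor-like cells, at 139 CPM in the control and 162 CPM in the tomatidine library. Endothelial-like cells came second in the control library, with 62.7 CPM against 46.3 CPM, and meningeal fibroblast-like cells had 17.1 and 51.1 CPM. The order of these last classes differed between the libraries, and their intervals overlapped in the tomatidine library. In oligodendrocyte precursor-like cells 19.2% of control and 20.2% of tomatidine cells had a UMI after thinning, and 51.5% and 45.5% before it. In microglia-like cells the thinned shares were 0.384% and 0.366%, at median depths of 3877 and 3529 UMIs against 6663 and 5551 in the precursors. CA3-like neurons were highest among excitatory neuron-like cells at 29.9 and 17.7 CPM, against 16.0 and 14.5 CPM in CA1-like neurons. The gap was small in the tomatidine library, and 1 control CA3-like cell held 33 of 226 UMIs.

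Igfbp4, a binding protein that mostly restrains IGF and is cut by the protease PAPP-A, was highest in meningeal fibroblast-like cells, at 764 CPM in the control and 373 CPM in the tomatidine library. Interneuron-like cells followed with 358 and 274 CPM. Excitatory neuron-like cells had 117 and 99.3 CPM and endothelial-like cells 92.4 and 143 CPM, so the third place differed between the libraries. The excitatory signal lay in CA1-like neurons, which had 396 and 353 CPM and 7612 of the 8680 control UMIs of the class, whereas dentate granule-like neurons had 10.1 and 10.7 CPM. After thinning, 40.9% and 36.6% of CA1-like neurons had an Igfbp4 UMI against 1.62% and 1.87% of dentate granule-like neurons, whose median depths were 13953 and 12636.5 UMIs against 24789.5 and 17524.5. An unnamed cluster led by the border macrophage genes Mrc1, Cd163 and Lyve1, with 57 and 70 cells, held 410.4 and 514 CPM. An unnamed neuron cluster led by Nxph3, Ccn2 and Cplx3 held 249.5 and 195 CPM.

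Igfbp5, a binding protein that also attaches to extracellular matrix, was highest among the larger classes in astrocyte-like cells, at 469 and 456 CPM, followed by meningeal fibroblast-like cells at 410 and 391 CPM. The intervals of these classes did not overlap in either library. Ependymal-like cells had 320 and 368 CPM and thalamic or other subcortical neuron-like ones 212 and 219 CPM. Most of the astrocyte-like signal came from 1 cluster led by Myoc, Thbs4 and Gfap, where Gfap encodes the main intermediate filament of reactive and fibrous astrocytes. Its 160 control and 144 tomatidine cells held 2950 of 5525 and 3505 of 6445 UMIs of the class, at 1292 and 1624 CPM, against 237 and 226 CPM in the largest astrocyte cluster. Dentate granule-like neurons held 294 and 296 CPM, whereas CA1-like neurons held 10.3 and 16.2 CPM, the reverse of Igfbp4. After thinning, 33.8% and 32.8% of dentate granule-like neurons and 2.11% and 2.36% of CA1-like neurons had an Igfbp5 UMI. An unnamed neuron cluster led by Sec14l3 and Fermt1, with 60 and 121 cells, held 1259.5 and 1077 CPM.

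Igfbp6, which prefers IGF2 to IGF1, was highest in meningeal fibroblast-like cells, at 284 CPM in the control and 358 CPM in the tomatidine library. An unnamed neuron cluster led by Ddit4l and Dsc3 held 191 and 192 CPM, and another led by Igfn1, Teddm3 and Dkkl1 held 104 and 113 CPM. Among dentate granule-like neurons the cluster led by Mylk3 and Nhlh1 held 52.9 and 57.5 CPM and the one led by Tdo2 and Dsp held 7.06 and 7.33 CPM. Both libraries gave the same order of these granule clusters. Thalamic or other subcortical neuron-like cells held 1.77 and 1.93 CPM, and 0.280% and 0.361% of them had a UMI after thinning, against 23.5% and 27.5% of meningeal fibroblast-like cells.

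Igfbp7 was a transcript of vessels. Mural-like cells, which are the pericytes and smooth muscle cells around vessels, held 2207 CPM in 38 control cells and 2034 CPM in 39 tomatidine cells. Endothelial-like cells held 1230 CPM in both libraries, from 4299 and 4675 UMIs. Meningeal fibroblast-like cells held 338 and 98.9 CPM and choroid plexus-like cells 114 and 152 CPM, so these classes changed places between the libraries. After thinning, 91.9% and 92.5% of mural-like and 70.5% and 68.4% of endothelial-like cells had a UMI, against 0.217% and 0.239% of excitatory neuron-like cells. An unnamed neuron cluster led by Gpr151, Chrnb4 and Tac2, with 127 and 35 cells, held 52.3 and 76.2 CPM.

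The ligand Igf1 was sparse, with 1613 control and 1779 tomatidine UMIs over all kept cells. Interneuron-like cells held 808 and 676 of these UMIs, at 60.1 and 55.5 CPM, and CGE-type-like interneurons held 107 and 102 CPM. The cluster led by the border macrophage genes Mrc1, Cd163 and Lyve1 held 88.6 and 140 CPM from 19 and 36 UMIs. Thalamic or other subcortical neuron-like cells had 21.4 and 23.1 CPM, meningeal fibroblast-like cells 20.5 and 24.5 CPM, and microglia-like cells 12.8 and 14.1 CPM, and the intervals of the meningeal class overlapped those of the other two in both libraries. Ependymal-like cells had 23 control UMIs, all in 1 cell, and 1 tomatidine UMI. Excitatory neuron-like cells had 0.743 and 0.690 CPM. In mural-like cells there were 0 UMIs of Igf1 in either library, which allows up to 15.8 CPM (the level of 3 UMIs).

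The receptor gene Igf1r was detected in each class. Endothelial-like cells were highest, at 568 CPM in the control and 514 CPM in the tomatidine library, and 54.4% and 47.9% of them had a UMI after thinning. Choroid plexus-like cells followed at 143 and 192 CPM, then ependymal-like cells at 142 and 163 CPM, with intervals that overlapped. The lowest of the classes with over 100 cells was the interneuron-like class, at 52.0 and 53.7 CPM, which was the class with the most Igf1. Igf1r was the most evenly spread of the set, with 13.6% of control and 12.9% of tomatidine UMIs in the top 1% of cells, compared with 68.1% and 64.5% for Igfbp7.

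Likeness of pattern was measured as Pearson's r of log2(CPM + 10) over the 13 classes of both libraries, 26 points that share their libraries and class sizes, among 12553 genes. The genes nearest to Igfbp2 were Sfrp1 (r = 0.962), Bmp6 (0.925) and Sema3b (0.925), and those nearest to Igfbp6 were Itgbl1 (0.934), Aldh1a2 (0.909) and Prg4 (0.906). Igfbp7 was nearest to Bcam (0.947), Foxf2 (0.926) and Mylk (0.920), and Igf1r to Mecom (0.918), Cavin2 (0.888) and Kdr (0.875). Looser likeness was found for Igfbp4, with Moxd1 (0.870), Ccn3 (0.869) and Cemip (0.827), and for Igf1, with Col25a1 (0.848), Pnoc (0.831) and Kcnmb2 (0.828). Igfbp5 was nearest to Slc22a4 (0.838), Por (0.807) and Atp1b2 (0.804), and Igfbp3 to Susd5 (0.819), Fbln2 (0.814) and Acan (0.799).

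To compare the diets, the 8 genes were first summed over all kept cells, where 0 of 8 passed a 1.5-fold difference in either direction, against 6.13% of the 15145 genes with at least 50 UMIs. Igfbp2 had 72.6 CPM in the control and 56.8 CPM in the tomatidine library, a log2 ratio of -0.35 (95% interval -0.39 to -0.32). Igfbp4 had 115 and 93.8 CPM (-0.30, -0.32 to -0.27) and Igf1r 90.8 and 81.1 CPM (-0.16, -0.19 to -0.13). Igfbp6 had 30.5 and 36.0 CPM (0.24, 0.19 to 0.29). The other ratios were -0.14 for Igfbp3, 0.04 for Igfbp5, 0.00 for Igfbp7 and 0.18 for Igf1. The unnamed clusters led by Pou4f2 and by Gata3, both larger in the tomatidine library, held 86 and 198 and 122 and 298 Igf1 UMIs. The part of cluster sizes in the Igf1 ratio was not tested.

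For Igfbp2, choroid plexus-like cells held 7488 of 15012 control UMIs and 1543 of 11400 tomatidine UMIs of the gene. Without these cells the log2 ratio of Igfbp2 over the remaining cells was 0.42, and with each class given the same share of cells in both libraries it was 0.41. The mean of CPM per cell, with the choroid plexus-like cells kept, gave 0.016. Per 1000 Ttr UMIs there were 11.8 and 14.1 Igfbp2 UMIs in choroid plexus-like cells, whereas in astrocyte-like cells there were 136 and 1134 and in excitatory neuron-like cells 33.8 and 175. Both of the last classes had more Igfbp2 for each Ttr UMI than choroid plexus-like cells, and where their Igfbp2 UMIs came from was not tested.

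Of the 72 pairs of a gene and a class with at least 50 cells in each library, 64 had at least 50 UMIs, and 10 of these passed 1.5-fold, 6 higher and 4 lower in the tomatidine library. The 95% counting interval excluded 0 in 29 pairs, the 10 included. The share of all genes with such an interval was not computed, so this count has no background to be read against. By class, 3 of 8 genes passed in meningeal fibroblast-like cells, where 6.99% of all genes tested did, and 2 of 5 passed in microglia-like cells, where 4.94% did. In interneuron-like cells 1 of 8 passed (3.42% of all genes), in the thalamic or other subcortical neuron-like class 1 of 7 (6.22%), in astrocyte-like cells 1 of 8 (3.13%), in oligodendrocyte-like cells 1 of 7 (3.19%) and in endothelial-like cells 1 of 7 (5.79%). In excitatory neuron-like cells 0 of 8 passed (2.85%) and in oligodendrocyte precursor-like cells 0 of 6 (5.41%). The median log2 ratio of the genes counted lay between -0.32 in endothelial-like and 0.15 in microglia-like cells, and that of all genes between -0.04 and 0.05.

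**Figure D2:**
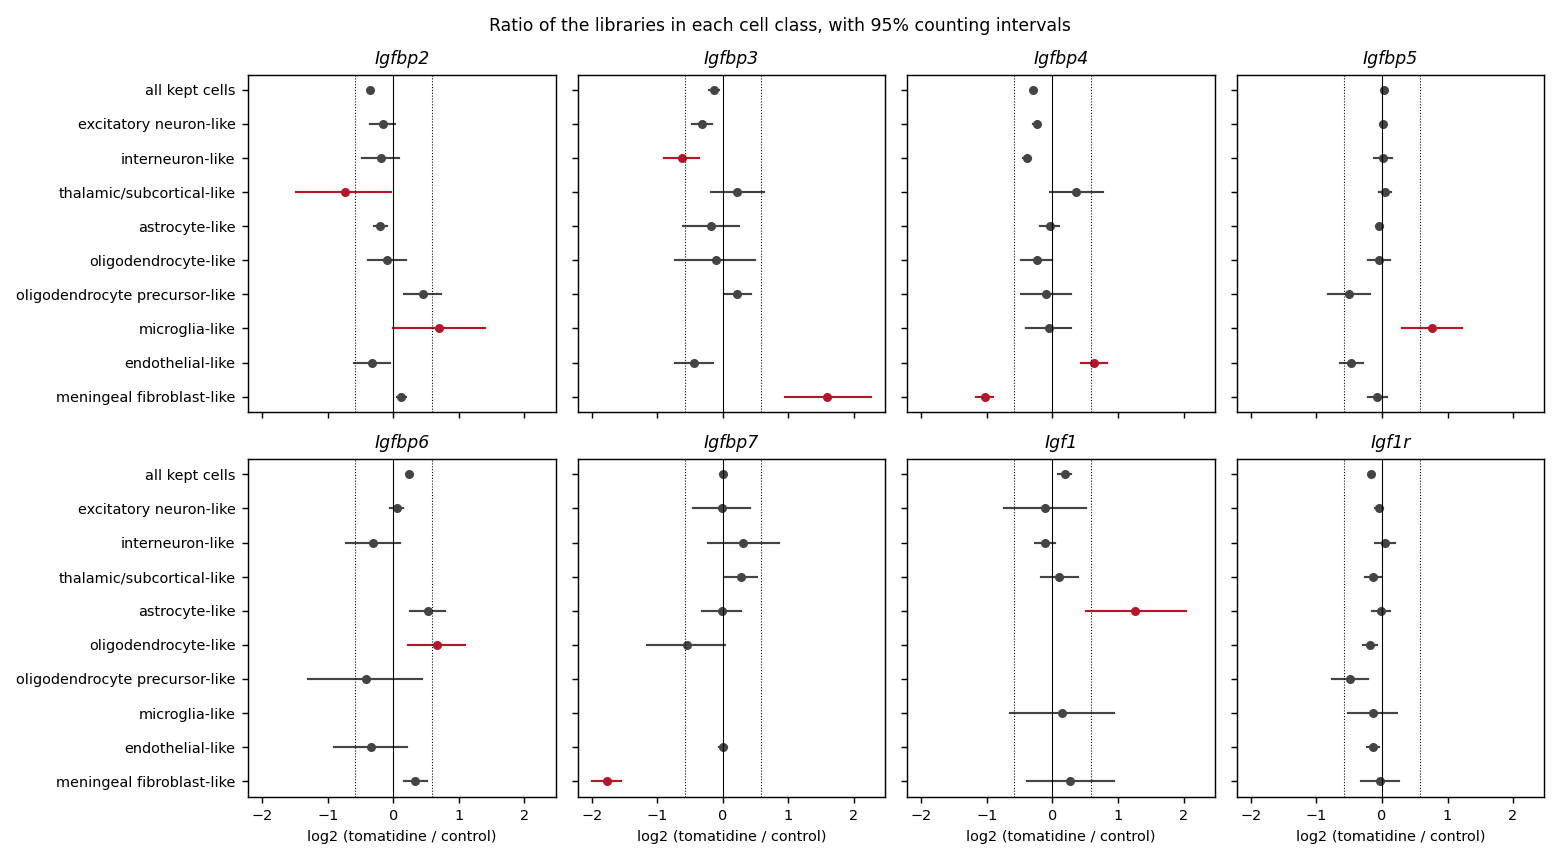
Log2 ratio of tomatidine over control CPM for each of the 8 genes in all kept cells and in 9 classes, with 95% counting intervals. Only pairs with at least 50 UMIs are drawn, red marks the 10 pairs past 1.5-fold (dotted lines), and the ratio farthest from 0 is Igfbp7 in meningeal fibroblast-like cells at -1.77.

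Meningeal fibroblast-like cells, which form the membranes around the brain, held 3 of the 10 pairs past 1.5-fold, among them the 2 ratios farthest from 0. Igfbp7 had 496 UMIs (338 CPM) in the control and 242 UMIs (98.9 CPM) in the tomatidine library, a log2 ratio of -1.77 (-2.0 to -1.55). Igfbp4 had 1120 UMIs (764 CPM) and 912 UMIs (373 CPM), a ratio of -1.04 (-1.16 to -0.91). Igfbp3 went the other way, with 25 UMIs (17.1 CPM) and 125 UMIs (51.1 CPM), a ratio of 1.58 (0.95 to 2.26). Igfbp6 was 1.26-fold higher at 284 and 358 CPM (0.33, 0.16 to 0.51), Igfbp2 differed by 0.12 (0.06 to 0.19), and Igfbp5, Igf1 and Igf1r had intervals that included 0.

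These cells fell into 8 subclusters, none of which was named by markers, and 3 of them were led by genes of astrocytes, neurons or oligodendrocytes. Igfbp7 and Igfbp4 were highest in the subcluster led by Tcf21, Emcn, Steap4, Dpep1 and Pi16, which held 44 of 284 control cells (15.5%) and 35 of 527 tomatidine cells (6.64%). Igfbp7 stood at 1602 CPM there in the control and 640 CPM in the tomatidine library, and Igfbp4 at 2663 and 616 CPM, so the libraries differed within the subcluster as well as in its size. Without it, the log2 ratio of Igfbp7 was -0.78 (-1.14 to -0.41), that of Igfbp4 was -0.20 (-0.37 to -0.04), and that of Igfbp3 was 1.49 (0.82 to 2.22). With the 8 subclusters given the same weight in both libraries, the ratios were -1.05, -0.83 and 1.52. Summed choroid plexus markers, 14 genes, stood at 2403 CPM in control and 702 CPM in tomatidine cells of this class, and the 13 mural markers at 3849 and 5354 CPM; their part in the result was not tested.

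The other subclusters split the family further. The largest, led by Il31ra, Il13ra2 and Wnt4, held most of the Igfbp2, at 4870 and 5291 CPM. The subcluster led by Ccn5, Vsx1 and Bche held the highest Igfbp6 (1153 and 1661 CPM) and Igfbp5 (1184 and 1677 CPM), with only 13 and 35 cells, and little Igfbp2 (226 and 262 CPM). Igfbp3 was at or below 62.3 CPM in each control subcluster, and its 125 tomatidine UMIs were spread over 41 of 527 cells, against 13 of 284 control cells.

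**Figure D3:**
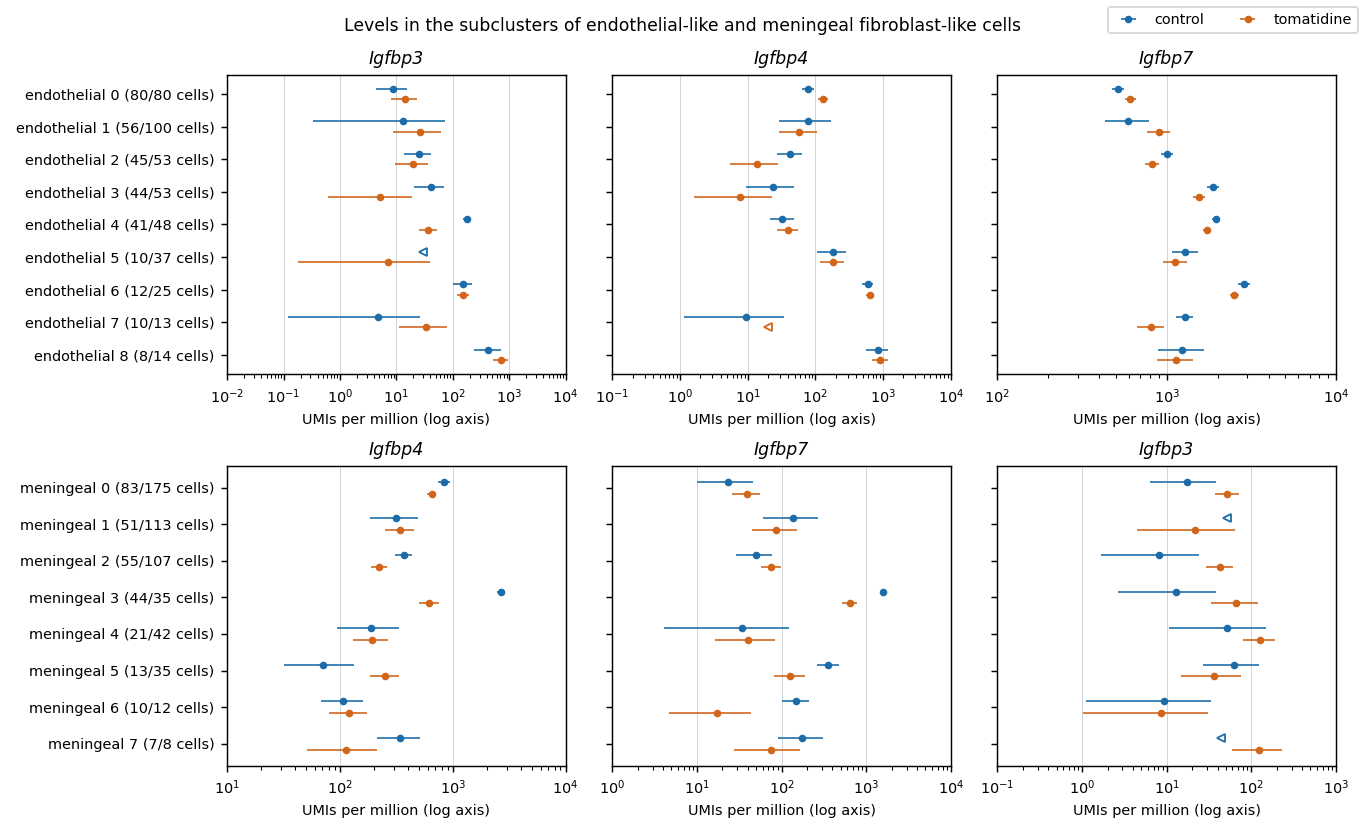
Levels in CPM (log axes) of Igfbp3, Igfbp4 and Igfbp7 in the 9 subclusters of endothelial-like cells (top) and the 8 of meningeal fibroblast-like cells (bottom), with exact Poisson 95% intervals and cell numbers as control/tomatidine. Open triangles mark 0 UMIs at the level of 3 UMIs. Meningeal subcluster 3 stands apart for Igfbp4 (2663 CPM in the control library) and Igfbp7 (1602 CPM), and endothelial subclusters 6 and 8 hold the highest Igfbp4.

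In endothelial-like cells, the lining of the vessels and the cells in which the study followed senescence markers, Igfbp7 had the same level in both libraries (log2 ratio 0.00, interval -0.06 to 0.06). Igfbp4 had 323 UMIs (92.4 CPM) in the control and 544 UMIs (143 CPM) in the tomatidine library, a ratio of 0.63 (0.43 to 0.83). Igfbp5 was lower in the tomatidine library, at 179 and 129 CPM (-0.47, -0.64 to -0.29), as was Igf1r, at 568 and 514 CPM (-0.14, -0.24 to -0.05). Igfbp3 and Igfbp2 gave -0.44 and -0.32, but 1 control cell held 101 of the 219 Igfbp3 UMIs and 1 held 69 of the 245 Igfbp2 UMIs. Without the cell with the most UMIs in each library, these ratios were 0.27 (-0.09 to 0.63) and 0.02 (-0.28 to 0.33).

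The 9 endothelial subclusters differed in their binding proteins. Igfbp4 was highest in the subcluster led by the smooth muscle genes Pln, Cnn1 and Acta2, at 592 and 632 CPM with 12 and 25 cells, and in 1 led by the microglial genes Tmem119 and P2ry13, at 830.5 and 903 CPM with 8 and 14 cells. Both had 10 arterial markers raised. The second of these also held the highest Igfbp3, at 430 CPM from 15 UMIs and 706 CPM from 43 UMIs. A subcluster with 6 capillary markers raised, led by Spata25, Ism1 and Angpt2, held the highest Igf1r (1108 and 1016 CPM) and 1879 and 1556 CPM of Igfbp7, but 23.5 and 7.75 CPM of Igfbp4 from 7 and 3 UMIs. Venous-like cells, with 10 and 37 cells, held 181 and 180 CPM of Igfbp4.

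With the 9 subclusters weighted alike, the Igfbp4 ratio in endothelial-like cells was 0.19, and the mean of CPM per cell gave 0.091. Without the 4 subclusters led by mural genes, microglial genes or a mix of choroid plexus and oligodendrocyte genes the Igfbp4 ratio was 0.30 (-0.01 to 0.61). Left out in the same way, Igf1r gave -0.02 (-0.14 to 0.10), Igfbp2 0.04 (-0.37 to 0.46) and Igfbp3 -0.20 (-0.92 to 0.50), so these intervals included 0. Igfbp5 gave -0.36 (-0.57 to -0.15) and Igfbp7 0.02 (-0.07 to 0.12). The cells left still included a subcluster led by the neuronal genes Sst and Npy, with 80 and 80 cells. They also included 1 led by the astrocyte genes Hes5 and Cyp4f15, with 45 and 53 cells. The part of these subclusters in the ratios, that of Igfbp5 among them, was not tested. Summed mural markers stood at 7358 CPM in control and 9513 CPM in tomatidine endothelial-like cells, choroid plexus markers at 2361 and 115 CPM, and red cell markers at 4390 and 2106 CPM. Summed astrocyte markers were lower in the tomatidine library in cells without a UMI of the senescence marker Cdkn1a, at 8221 and 4204 CPM. They were also lower in cells with one, at 6480 and 5640 CPM. The part of the red cell and astrocyte markers in these ratios, that of Igfbp5 among them, was not tested. The study's second set of quality limits allows at most 6000 genes and gives a range for the limit on mitochondrial UMIs. The strictest end of that range, under 10%, was used here. These limits left 246 and 353 endothelial-like cells, in which the Igfbp4 ratio was -0.22.

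In interneuron-like cells Igfbp3 had 319 UMIs (23.7 CPM) in the control and 187 UMIs (15.4 CPM) in the tomatidine library, a log2 ratio of -0.63 (-0.90 to -0.36). Igfbp4 was also lower in the tomatidine library, at 358 and 274 CPM (-0.39, -0.45 to -0.32), while Igf1, at 60.1 and 55.5 CPM, had an interval that included 0 (-0.26 to 0.04). The class was made of a cluster led by Crhbp, Sst and Cort and a CGE-type-like one led by Vip and Htr3a. In the first, Igfbp3 had 26.7 and 12.3 CPM (-1.12, -1.5 to -0.76), Igfbp4 490 and 378 CPM (-0.37, -0.45 to -0.30) and Igf1 31.0 and 20.2 CPM (-0.62, -0.93 to -0.32). In the CGE-type-like cluster the ratios of Igfbp3, Igfbp4 and Igf1 were 0.04, -0.08 and -0.07 with intervals that included 0, and that of Igfbp2 was -0.66 (-1.01 to -0.32), at 36.2 and 22.9 CPM. Without the cell with the most Igfbp2 UMIs in each library it was -0.55 (-0.93 to -0.17). Without the control cell alone, which held 40 of 186 UMIs, it was -0.33, short of 1.5-fold.

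Finer subclusters of the class differed in these genes, and some were led by genes of other cells. Astrocyte genes (Gja1, Slc1a3) led a subcluster of 40 and 31 cells, and oligodendrocyte genes (Klk6, Cldn11) 1 of 36 and 32. Microglial genes (Tmem119, P2ry12) led 1 of 6 and 12 cells. The part of these subclusters in the ratios of the class was not tested. Igf1 was highest in the CGE-type-like subclusters led by Vip and Slc5a7, at 191 and 199 CPM, and by Krt73 and Slc17a8, at 165 and 156 CPM. It was low in Pvalb-like cells, at 6.76 and 6.87 CPM, which held 495 and 330 CPM of Igfbp4. The Sst-like subcluster led by Layn and Chrna2 held 538 and 380 CPM of Igfbp4, 60.0 and 40.1 CPM of Igf1, and 140 of 319 control against 41 of 187 tomatidine UMIs of Igfbp3. Giving the 13 subclusters the same weight in both libraries left the Igfbp3 ratio of the class at -0.63 and the Igfbp4 ratio at -0.36. Among the cells kept by the second set of quality limits, 314 and 295, the Igfbp3 ratio was 0.41, and the mean of CPM per cell gave -0.18.

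**Figure D4:**
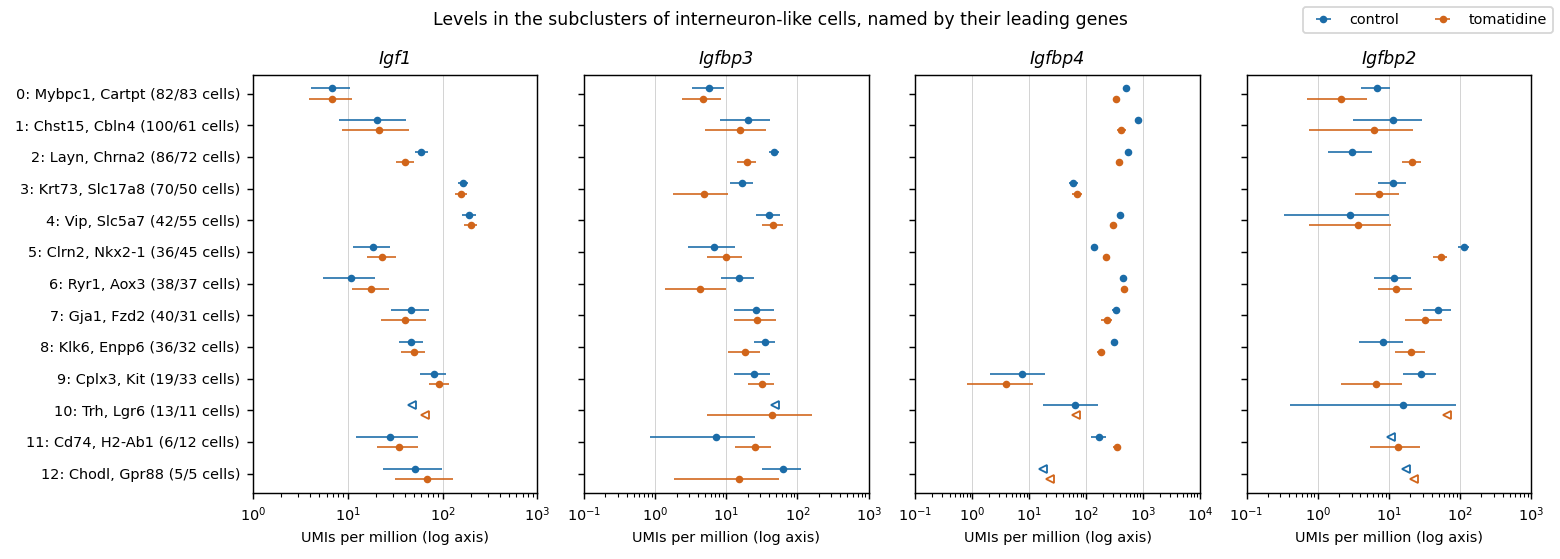
Levels in CPM (log axes) of Igf1, Igfbp3, Igfbp4 and Igfbp2 in 13 subclusters of interneuron-like cells, labelled by leading genes and by cell number as control/tomatidine, with exact Poisson 95% intervals. Open triangles mark 0 UMIs at the level of 3 UMIs. Igf1 is highest in subclusters 3 and 4 of both libraries (156 to 199 CPM), and Igfbp2 in subcluster 5 (113 and 53.4 CPM).

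Among excitatory neurons, CA3-like cells had lower Igfbp2, Igfbp3, Igfbp4 and Igf1r in the tomatidine library, but not lower Igfbp5, Igfbp6 or Igfbp7 beyond counting error. Igfbp4 stood at 78.1 CPM in 366 control and 44.9 CPM in 311 tomatidine CA3-like cells (-0.80, -1.01 to -0.60). Of the UMIs, 1 control cell held 147 of 590 and 1 tomatidine cell 56 of 301. Without both cells the ratio was -0.69 (-0.92 to -0.47), and without the control cell alone it was -0.40. Igfbp3 stood at 29.9 and 17.7 CPM (-0.75, -1.09 to -0.43) and Igfbp2 at 14.3 and 8.20 CPM (-0.80, -1.30 to -0.32). Without the top cell of each library these ratios were -0.62 and -0.72. Without the top control cell alone they were -0.54 and -0.48, short of 1.5-fold. Igf1r in the same cells gave 129 and 102 CPM (-0.33, -0.48 to -0.19). Igfbp5 had 16.3 and 20.3 CPM (0.32, -0.05 to 0.68), Igfbp6 14.2 and 13.9 CPM (-0.03, -0.45 to 0.38) and Igfbp7 only 9 and 17 UMIs (1.09, -0.16 to 2.44). In CA1-like neurons Igfbp5 was higher, at 10.3 and 16.2 CPM from 198 and 220 UMIs (0.65, 0.37 to 0.94), and Igfbp4 gave -0.17 (-0.22 to -0.11). In dentate granule-like neurons Igfbp3 was lower, at 8.55 and 7.01 CPM (-0.29, -0.52 to -0.05), and the intervals of the other 7 genes included 0, with ratios of 0.01 for Igfbp5, 0.10 for Igfbp6 and -0.01 for Igf1r. Among these 7, Igf1 was past 1.5-fold at -0.76, on few UMIs. Without the top cell of each library Igf1 gave -0.90 (-1.87 to -0.004) from 38 and 15 UMIs. Igfbp5 went opposite ways in 2 granule clusters, with -0.14 (-0.20 to -0.08) in the one led by Mylk3 and Nhlh1 and 0.11 (0.06 to 0.16) in the one led by Tdo2 and Dsp.

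The remaining pairs past 1.5-fold rested on low levels. Igfbp2 had, in the thalamic or other subcortical neuron-like class, 61 and 24 UMIs, 5.15 and 3.09 CPM (-0.74, -1.48 to -0.03). In microglia-like cells Igfbp2 had 33 and 42 UMIs, 13.6 and 22.0 CPM (0.69, 0.00 to 1.40), and Igfbp5 had 72 and 96 UMIs, 29.6 and 50.2 CPM (0.76, 0.30 to 1.22). Astrocyte markers in microglia-like cells summed to 1390 and 1796 CPM and meningeal fibroblast markers to 26.8 and 75.3 CPM, and their part in these ratios was not tested. Igf1 in astrocyte-like cells had 21 and 60 UMIs, 1.78 and 4.25 CPM (1.252, 0.51 to 2.04). Igfbp6 in oligodendrocyte-like cells had 85 and 100 UMIs, 4.47 and 7.07 CPM (0.66, 0.23 to 1.10). Under 9 alternatives to scaling, clustering and cell filters, Igfbp2 in microglia-like cells passed 1.5-fold in 6, with ratios from 0.065 to 0.86. Igfbp5 in microglia-like cells passed in 7 (0.39 to 0.78) and Igfbp6 in oligodendrocyte-like cells in 5 (0.47 to 0.68), whereas Igf1 in astrocyte-like cells and Igfbp2 in the subcortical class passed in 9. Igfbp6 in astrocyte-like cells did not pass, at 187 and 322 UMIs, 15.9 and 22.8 CPM (0.52, 0.26 to 0.79).

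Oligodendrocyte precursor-like cells had no pair past 1.5-fold, but their intervals excluded 0 for 4 of 6 genes, a count without its share over all genes. Igf1r had 111 and 79.5 CPM (-0.49, -0.76 to -0.22) and Igfbp5 79.7 and 56.5 CPM (-0.50, -0.82 to -0.18), whereas Igfbp2 had 68.6 and 93.5 CPM (0.45, 0.16 to 0.73) and Igfbp3 139 and 162 CPM (0.22, 0.01 to 0.43). Igf1r was lower in the tomatidine library in 8 of the 9 classes, with ratios from -0.49 to 0.05 and a median of -0.14. Its interval excluded 0 in oligodendrocyte-like, oligodendrocyte precursor-like and endothelial-like cells and in the thalamic or other subcortical neuron-like class, but not in endothelial-like cells without the 4 subclusters named above.

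The study followed Cdkn1a, which encodes a cell cycle inhibitor raised in senescent cells, in brain endothelium, so the 8 genes were compared between endothelial-like cells with and without a Cdkn1a UMI. There were 126 of 306 such control cells and 136 of 423 such tomatidine cells. Cells with a Cdkn1a UMI had medians of 13468.5 and 11695.5 UMIs and those without had 2943 and 2865, so the split followed depth and is a description. Igfbp7 stood at 1408 CPM with and 873 CPM without a Cdkn1a UMI in the control library, and at 1369 and 1051 CPM in the tomatidine library. Igf1r stood at 628 and 448 CPM, and at 571 and 441 CPM. Igfbp4 was lower in cells with a Cdkn1a UMI, at 66.4 and 145 CPM in the control and 128 and 162 CPM in the tomatidine library. Igfbp3 had opposite directions, with log2 ratios of 0.67 in the control and -0.52 in the tomatidine library, but the control cell with 101 Igfbp3 UMIs was among those with a Cdkn1a UMI. Without the cell with the most Igfbp3 UMIs in each library both ratios were below 0, at -0.66 (-1.21 to -0.11) and -0.96 (-1.45 to -0.47). Igfbp2 gave 0.85 and 0.53 with all cells, and 0.23 (-0.25 to 0.72) and 0.35 (-0.08 to 0.78) without the top cells. Igfbp5 also had opposite directions, at -0.50 (-0.73 to -0.26) in the control and 0.21 (-0.05 to 0.48) in the tomatidine library. Without the top cells it gave -0.99 and 0.00. Summed mural markers were also higher with a Cdkn1a UMI, at 8282 against 5499 CPM and at 11357 against 7155 CPM. So were endothelial markers, at 16388 against 10553 CPM and at 17115 against 14276 CPM. Astrocyte markers were lower with a Cdkn1a UMI in the control (6480 against 8221 CPM) and higher in the tomatidine library (5640 against 4204 CPM). Excitatory neuron markers were lower in both, at 1832 against 2290 CPM and 1406 against 1737 CPM. The part of these markers in the differences was not tested.

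**Figure D5:**
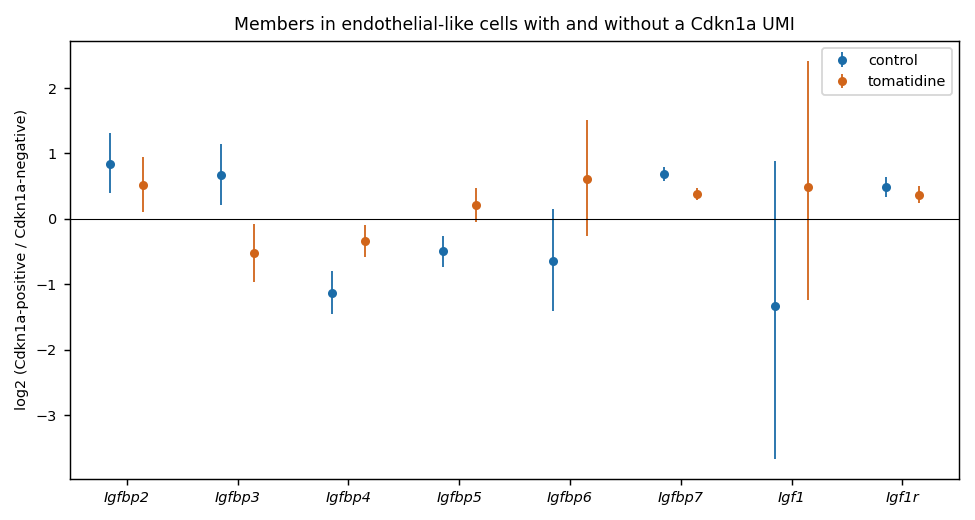
Log2 ratio of CPM in endothelial-like cells with a Cdkn1a UMI over those without one, for each of the 8 genes in the control (126 and 180 cells) and tomatidine (136 and 287 cells) libraries, with 95% counting intervals. Igfbp2, Igfbp7 and Igf1r lie above 0 and Igfbp4 lies below 0 in both libraries with all cells included.

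Igf1 was also compared between microglia-like cells with and without a UMI of Cst7 or Itgax, genes raised in activated microglia. With such a UMI, 169 control cells had 18 Igf1 UMIs (21.8 CPM) and 118 tomatidine cells had 17 (31.4 CPM). Without one, 394 control cells had 13 (8.11 CPM) and 360 tomatidine cells had 10 (7.30 CPM). The log2 ratios were 1.43 (0.32 to 2.58) and 2.11 (0.90 to 3.40), at medians of 4265 and 4102.5 UMIs with and 3680 and 3421 UMIs without. With at least 2 such UMIs required, the ratios were 2.05 and 2.71.

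The wider IGF axis was described from a list of 36 genes for the second ligand, other carriers and receptors, proteases, adaptors and kinases, of which 35 had at least 50 UMIs over all kept cells. Of these, 3 passed 1.5-fold (8.57%, against 6.13% of all genes tested): Igfbpl1, a binding protein-like carrier, was lower in the tomatidine library at 6.98 and 2.75 CPM, and the receptor gene Insrr (0.164 and 0.429 CPM) and the adaptor gene Irs4 (0.368 and 1.79 CPM) were higher. The list had a median log2 ratio of 0.01, against 0.03 for all genes. Within classes 0 to 2 of 22 to 30 listed genes passed, where 2.85% to 6.99% of all genes did. Igf2, the second ligand, stood at 40.9 and 25.3 CPM in astrocyte-like cells (-0.69), at 12.4 and 59.2 CPM in oligodendrocyte precursor-like cells (2.25) and at 18.9 and 36.6 CPM in microglia-like cells (0.95). In astrocyte-like cells 1 control cell held 107 of 481 Igf2 UMIs, and without the top cell of each library the ratio was -0.44.

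The other listed genes that passed in a class were few. Pappa, a protease that cleaves IGFBP4 and so frees IGF, stood at 7.44 and 2.55 CPM in interneuron-like cells (-1.55, -2.18 to -0.95), the class in which Igfbp4 was also lower. Htra1, a secreted protease that can cleave binding proteins, stood at 270 and 153 CPM in endothelial-like cells (-0.82, -0.97 to -0.67). Ghr, the growth hormone receptor gene, stood at 8.74 and 20.8 CPM in oligodendrocyte precursor-like cells (1.249), and Insrr at 8.19 and 25.3 CPM in meningeal fibroblast-like cells (1.63). Igfbpl1 in excitatory neuron-like cells gave 1.03 from 27 and 41 UMIs, of which 1 tomatidine cell held 30, and without the top cells it gave -0.76. Among listed genes with at least 100 UMIs in a class, the highest ratio in interneuron-like cells was that of the adaptor gene Shc1, at 8.18 and 12.2 CPM (0.58), and the highest in endothelial-like cells was that of Ghr, at 18.9 and 25.3 CPM (0.42). In meningeal fibroblast-like cells these ratios lay between -0.44 for Htra1 and 0.28 for the kinase gene Akt2.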

How the data were processed

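Pooled control and tomatidine libraries of mouse hippocampus were analysed. The authors deposited UMI counts per gene and cell as filtered matrices from a probe-based fixed-cell assay. The submitters' processing notes name Cell Ranger 8.0.0 and mm10, whereas the file headers name Cell Ranger 7.1.0. The study's limits were applied (at least 500 UMIs, over 250 genes, log10 genes per log10 UMIs over 0.8, under 20% mitochondrial UMIs). Scrublet (scanpy 1.11.5) called 0 and 2 doublets, so the caller had not worked, and each library lost the top 2% by doublet score instead (308 and 295 cells). Cells were integrated and clustered with Seurat 5.3.0 (2000 variable genes, 30 principal components, resolution 0.8), leaving out the 8 genes and the IGF axis list. Of 38 clusters, 16 were not led by a single class under the marker rule and stayed unnamed. A name needed at least 3 of its markers raised 2-fold, and more raised markers than any other class. It also needed more of its markers among the top 10 genes than any other class. Subtypes were named by folds against all cells, a rule revised after the clusters were seen. UMIs were summed per class and library. Intervals are exact (Poisson, Clopper-Pearson, and conditional binomial for ratios) at 95%. Interval code was tested on simulated data.

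The genes, lists and tests were chosen with earlier results of these data known. The text names the 8 genes, listed IGF axis genes past 1.5-fold or with the highest or lowest ratio in a class, the 3 genes most like each of the 8 (at least 1000 UMIs), and marker genes. Single cells singled out for their counts were chosen after their values were seen. Clec7a was not used here as a microglial marker. Alternatives were TMM scaling (edgeR 4.0.16), median-of-ratios scaling, other resolutions, no integration, no doublet removal, stricter quality limits, shared barcodes left out, other UMI minimums and folds, and a mean over cells. Without replicates there was no test. The median kept cell had 7235.5 UMIs, so a gene at 10 CPM is seen in few cells of a class.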

Additional observations from a re-analysis of the deposited data

Results flagged for a closer look

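3 genes passed 1.5-fold in opposite directions in different classes, each in 1 library per group, and the difference between the classes was not tested. How many of all genes did the same was not counted. Igfbp4 had a log2 ratio of 0.63 in endothelial-like and -1.04 in meningeal fibroblast-like cells. Without the endothelial subclusters led by mural genes, microglial genes or a mix of choroid plexus and oligodendrocyte genes the first was 0.30 (-0.01 to 0.61). Without the meningeal subcluster led by Tcf21 and Emcn the second was -0.20 (-0.37 to -0.04), so neither stayed past 1.5-fold. Igfbp3 had 1.58 in meningeal fibroblast-like and -0.63 in interneuron-like cells. Under the stricter quality limits, Igfbp4 in endothelial-like cells was -0.22 and Igfbp3 in interneuron-like cells was 0.41, so neither ratio kept its direction. Igfbp2 had 0.69 in microglia-like cells (33 control and 42 tomatidine UMIs, and past 1.5-fold in 6 of 9 alternatives) and -0.74 in the thalamic or other subcortical neuron-like class (61 and 24 UMIs).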

How the results depend on the processing

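No paired analysis was possible because each group had 1 library. The number of pairs past 1.5-fold was 10, between 7 and 12 under the alternatives to scaling, clustering and cell filters, 4 with a minimum of 200 UMIs, 23 at a lower fold and 4 at a fold of 2. The pairs were not always the same. Of the 11 that passed under the stricter quality limits, 6 were among the 10, as were 6 of the 8 with a mean of CPM per cell. The other alternatives shared 7 to 10. Over all kept cells, the stricter quality limits gave log2 ratios of -0.24 for Igfbp2, -0.011 for Igfbp3, -0.030 for Igfbp4, 0.059 for Igfbp5, 0.46 for Igfbp6, 0.70 for Igf1 and -0.13 for Igf1r. The mean of CPM per cell gave 0.016 for Igfbp2, 0.078 for Igfbp3, -0.091 for Igfbp4, 3.8e-05 for Igfbp5, 0.54 for Igfbp6, 0.12 for Igfbp7, 0.41 for Igf1 and -0.12 for Igf1r, so Igfbp2 and Igfbp3 changed direction. With classes given the same share of cells the ratios were 0.41 for Igfbp2, -0.36 for Igfbp4, -0.015 for Igfbp5, 0.042 for Igfbp6 and -0.33 for Igfbp7, and without choroid plexus-like cells 0.42 for Igfbp2, so Igfbp2 and Igfbp5 changed direction. That weighting pooled the unnamed clusters as a single class, so size differences among them were not evened out. All deposited cells gave -0.49 for Igfbp2, 0.084 for Igfbp5 and 0.074 for Igf1. TMM gave -0.33 for Igfbp4, 0.0046 for Igfbp5 and -0.20 for Igf1r, and median-of-ratios scaling -0.33, 0.0022 and -0.20. For these changes the cause was not tested, except that the choroid plexus alternative differs only by its cells. The stricter limits turned Igfbp4 in endothelial-like cells to -0.22 and Igfbp3 in interneuron-like cells to 0.41. The other 8 pairs past 1.5-fold kept their direction under the 9 alternatives set for pairs. Of them Igfbp3, Igfbp4 and Igfbp7 in meningeal fibroblast-like cells, Igf1 in astrocyte-like cells and Igfbp2 in the thalamic or other subcortical neuron-like class stayed past 1.5-fold in 9 of 9, Igfbp5 in microglia-like cells in 7, Igfbp2 there in 6 and Igfbp6 in oligodendrocyte-like cells in 5. Igfbp4 in endothelial-like and Igfbp3 in interneuron-like cells stayed past it in 7 each. Without the top cell, Igfbpl1 in excitatory neuron-like cells gave -0.76, and Igfbp3 in control endothelial-like cells with against without a Cdkn1a UMI gave -0.66. Subcluster weights, subclusters left out and top cells left out were chosen after seeing the data. Spread between mice cannot be told apart from a difference between the diets, since each pool of 4 was 1 library.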

Other observations

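Clusters that no marker list named held part of the family's signal. The cluster led by Pou4f2, Barhl1 and Tfap2d, with 179 control and 667 tomatidine cells, held 195 and 95.03 CPM of Igfbp5 and 1.97 and 10.0 CPM of Igfbp6. The cluster led by Gata3, Sox14 and Lhx5, with 177 and 519 cells, held 21.8 and 19.98 CPM of Igf1, close to the thalamic or other subcortical neuron-like level. The cluster led by Nxph3, Ccn2 and Cplx3, with 493 and 479 cells, held 249.5 and 195 CPM of Igfbp4 (log2 ratio -0.35, -0.43 to -0.28). In the Myoc-led and Thbs4-led astrocytes, Igfbp5 had a log2 ratio of 0.33 (0.26 to 0.40) and Igfbp2 of -0.57 (-0.87 to -0.27), whereas in the largest astrocyte cluster Igfbp2 gave 0.09 (-0.08 to 0.25). In the Myoc-led cells 1 control cell held 41 of 240 Igfbp2 UMIs. Without that cell alone the ratio was -0.31, and without the top cell of each library -0.55 (-0.88 to -0.22).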
